A study of Mus musculus with 6 samples.

Results

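The 10 genes described here report injury and repair of the kidney tubule: Havcr1, Cd24a, Prom1, Spp1, Clu, Vcam1, Icam1, Cd44, Sox9 and Sox4. They were picked by symbol from a table of 33679 genes, and each matched 1 row. Messenger RNA was sequenced from mouse kidneys in which a ureter had been tied off, the unilateral ureteral obstruction model of tubular damage and scarring. The mice were Cd248 KO or, as controls, Wild type, and both groups had been obstructed. Cd248 encodes endosialin, a surface glycoprotein of fibroblasts and pericytes, so the comparison asks how the tubular injury program of the obstructed kidney looks when a stromal gene is missing. Values were used for 1 Cd248 KO library (replicate 1) and 3 wild type (WT) libraries (replicates 1 to 3); the other KO replicates were not analysed here. The labels give neither strain, sex, age nor the days after surgery, they do not say how the knockout was made, and they describe libraries from pooled RNA. Every KO value is a single measurement. The spread is that among the WT libraries, which are not said to be separate animals, so p-values measure a spread that may be technical.

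When tubular cells are damaged, they lose their transport program, flatten, and switch on a set of genes that are low in the resting kidney. KIM-1 (Havcr1), osteopontin (Spp1) and clusterin (Clu) are among the classical markers of this state, Sox9 and Sox4 are transcription factors of regenerating epithelium, and CD24 and CD133 (Prom1) mark scattered repair-competent tubular cells in the human kidney. Cells that stay in an inflamed, incompletely repaired state carry VCAM-1, and VCAM-1, ICAM-1 and CD44 hold leukocytes and matrix at the cell surface.

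The genotype label was checked first. Cd248 was listed at 0 FPKM (read fragments scaled to transcript length and library size) in the KO library, and at 9.03, 9.57 and 8.78 FPKM in the WT libraries. FPKM totals were 304425.6 in the KO library and between 267394.4 and 285321.5 in the WT libraries, and read depth is unknown. Across tested genes the KO library correlated with the WT libraries at Pearson's r of 0.932 to 0.940, and WT libraries with each other at 0.975 to 0.978; genes are not independent replicates. All 20 proximal tubule markers and 19 of 20 loop, distal tubule and collecting duct markers were in the table, and each of these passed the filter on low values (a mean of at least 0.5 FPKM).

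None of the 10 injury and repair genes passed the test. With limma on log2(FPKM + 1), 0 of 10 had an adjusted p under 0.05, and 0 of 10 had an unadjusted p under 0.05, while 0.723% of the 16871 tested genes passed (0.64% higher and 0.083% lower) and 10.8% had an unadjusted p under 0.05. All 10 passed the filter. In the authors' deposited table, 0 of 10 were marked significant and 1, Havcr1, had a p-value under 0.05. The ratios of the other 9 in the authors' deposited table ran from 0.79 (Sox4) to 1.26 (Vcam1), with q-values of 0.75 to 1. The median difference of the 10 was -0.03 on the log2 scale, against -0.01 over all tested genes. Its sign was not stable: it was 0.10 without WT replicate 1 and -0.11 without WT replicate 3, and -0.15 with libraries scaled to 1 FPKM total, which put the median of all tested genes at -0.11. The KO library lay above every WT library for 3 genes (Havcr1, Vcam1 and Icam1), where 28.0% of tested genes did so, and below every one for 4 genes (Cd24a, Prom1, Clu and Sox4), where 31.2% did so. Spp1, Cd44 and Sox9 lay inside the wild type range, so 7 of 10 lay outside it, where 59.2% of tested genes did so. These shares are near the background. An exact permutation test of 1 library against 3 cannot give a p below 0.25. In bulk tissue, fewer cells of a type and less RNA per cell cannot be told apart.

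**Figure D1:**
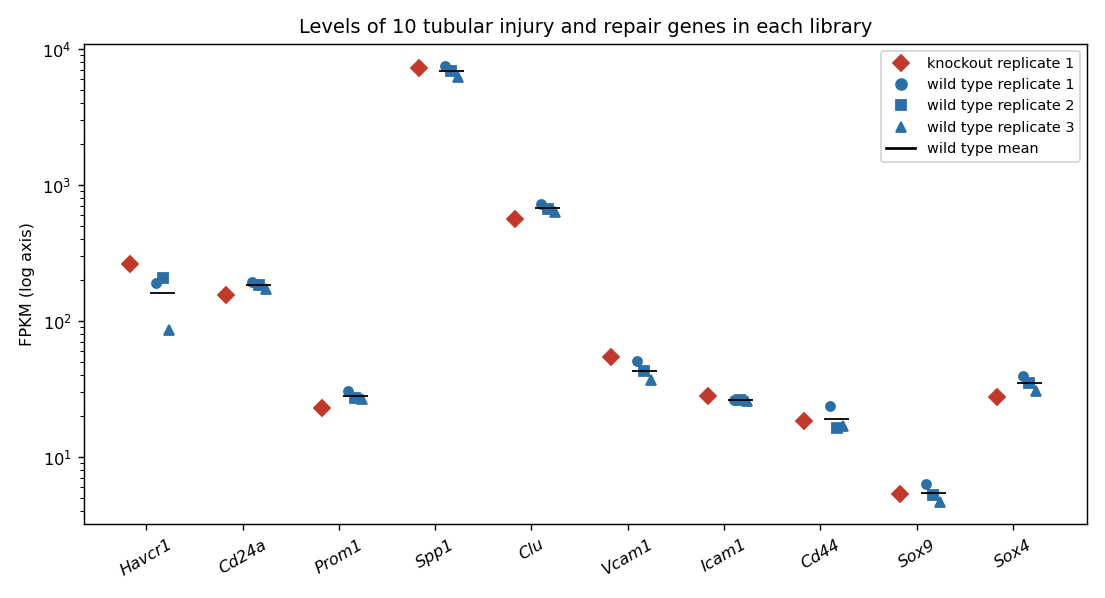
FPKM (log axis) of the 10 genes in the KO library (diamond) and in WT replicates 1, 2 and 3 (circle, square and triangle), with the wild type mean as a line. Spp1 stands at 7227 FPKM in the KO library and between 6212 and 7505 FPKM in the WT libraries, and Sox9 is the lowest of the 10 in each library.

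Havcr1, the phosphatidylserine receptor KIM-1 that lets injured proximal tubule cells engulf dying neighbours, showed the widest difference and the widest spread. Its level was 261 FPKM in the KO library, and 189, 206 and 85.6 FPKM in WT replicates 1, 2 and 3. The knockout value was the highest, but among WT libraries replicate 2 was 2.41 times replicate 3. The difference was 0.80 on the log2 scale (SE 0.55, 95% interval -0.70 to 2.29, limma adjusted p = 0.665), smaller than the wild type range of 1.26 on the same scale. Without WT replicate 3 it was 0.40 (adjusted p = 0.462). An exact permutation test of the 4 values (two-sided) gave p = 0.5. The authors' deposited table gives a ratio of 1.63 with a p-value of 0.03 and a q-value of 0.47. Havcr1 (ENSMUSG00000040405) is a protein-coding gene on mm10 chromosome 11, 46735080 to 46779578, plus strand.

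The level of Havcr1 was also read beside proximal tubule markers, which include genes of the transport program that damaged cells lose. Their sum therefore does not count the injured cells that make Havcr1. The 20 proximal tubule markers summed to 4385 FPKM in the KO library, and to 1337, 3508 and 5321 FPKM in WT replicates 1, 2 and 3. Kap, an androgen-regulated protein of the proximal tubule, made up most of that sum, and the remaining 19 markers summed to 932 FPKM in the KO library and to 332, 688 and 1027 FPKM in WT replicates 1, 2 and 3. Havcr1 equalled 5.94% of the 20-marker sum in the KO library, and 14.1%, 5.88% and 1.61% in WT replicates 1, 2 and 3, so the KO library lay inside the wild type range on this measure. Of the 20 markers, 0 passed limma's test (0 at an unadjusted p under 0.05). Above every WT library lay 6 (30%, against 28.0% of all tested genes), and 0 lay below (against 31.2%). The median difference was 0.55. Leaving out 1 WT library set that median at 0.10 (replicate 1) or 0.84 (replicate 3). Slc34a1, the sodium phosphate cotransporter of mature proximal tubule, was at 116 FPKM in the KO library against 84.7 ± 54.6 FPKM in wild type (SD, n = 3). Slc22a6, an organic anion transporter, was at 26.7 against 13.1 ± 10.1 FPKM, and Slc34a3 at 0.56 against 1.42 ± 1.33 FPKM. The part of proximal tubule content in the Havcr1 values was not tested.

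**Figure D2:**
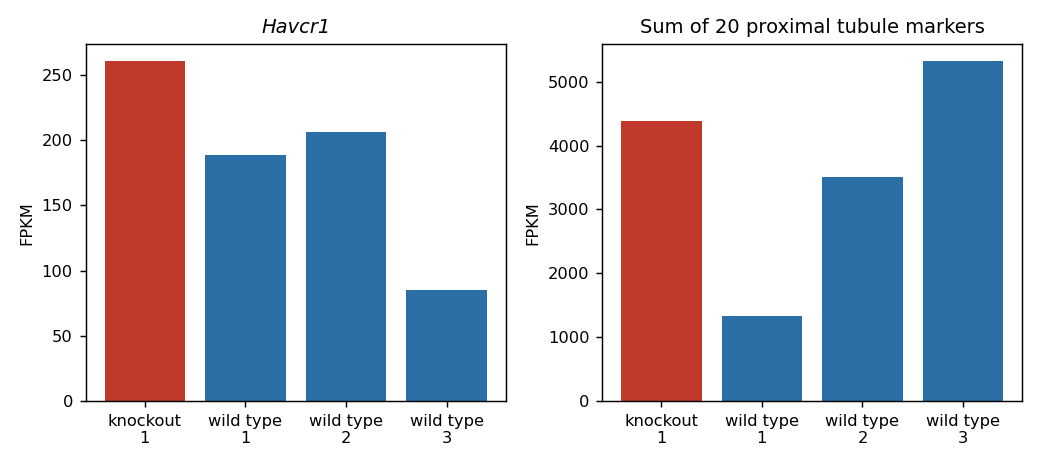
Left, Havcr1 in FPKM; right, the summed FPKM of 20 proximal tubule markers; 1 bar per library, the KO library in red and the WT libraries in blue. WT replicate 3 has the lowest Havcr1 (85.6 FPKM) and the highest marker sum (5321 FPKM).

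Cd24a and Prom1, whose human counterparts mark scattered tubular cells in the human kidney, both lay below every WT library by a similar amount. Cd24a encodes a small mucin-like protein anchored in the membrane and stood at 154 FPKM in the KO library against 192, 184 and 172 FPKM in WT replicates 1, 2 and 3. The difference was -0.24 (SE 0.12, 95% interval -0.56 to 0.08, adjusted p = 0.553). It was -0.44 after quantile normalization (adjusted p = 0.232) and -0.38 with 1 FPKM total. Prom1 encodes the pentaspan membrane protein CD133 and stood at 22.9 FPKM in the KO library against 30.6, 27.1 and 26.8 FPKM. The difference was -0.28 (SE 0.11, 95% interval -0.58 to 0.02, adjusted p = 0.488), the lowest adjusted p of the 10. The KO library was the lowest of the 4 for both genes, and the ratio of Cd24a to Prom1 within a library was 6.71 in the KO library and 6.27, 6.78 and 6.43 in the WT libraries. Cd24a (ENSMUSG00000047139) lies on chromosome 10, 43578284 to 43584265, plus strand, and Prom1 (ENSMUSG00000029086) on chromosome 5, 43993620 to 44102032, minus strand. Overlapping gene models at Prom1 held at most 0.26 FPKM in any library. Prom2, the related prominin, was at 1.29 FPKM in the KO library against 1.32 ± 0.38 FPKM (SD, n = 3).

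Spp1 and Clu, the secreted members, were the most abundant of the 10. Spp1 encodes osteopontin, a phosphoprotein that binds integrins and CD44, and ranked second of all genes by FPKM in the KO library and the first or the second in each WT library. Its level was 7227 FPKM in the KO library, and 7505, 6884 and 6212 FPKM in WT replicates 1, 2 and 3. The knockout value lay between wild type values. The difference was 0.08 (SE 0.39, 95% interval -0.98 to 1.14, adjusted p = 0.958), and its sign turned when libraries were scaled to 1 FPKM total (-0.06) or quantile normalized (-0.12). Of all FPKM, Spp1 alone held 2.37% in the KO library, and 2.81%, 2.46% and 2.18% in the WT libraries. It lies on chromosome 5, 104435118 to 104441050, plus strand (ENSMUSG00000029304), and a same-strand model inside it, Gm42793, was at 18.9 FPKM in the KO library against 15.6 to 19.5 FPKM. Reads that belong to both cannot be told apart in these values.

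The stretch upstream of the Spp1 start is shown because this gene dominates the set. It is from RefSeq, build GRCm38 (mm10), chr5:104434931-104435110, plus strand, 5′ to 3′, ending at the base before the RefSeq start, with the match to the RUNX letters AACCACA in capitals.
Spp1 upstream: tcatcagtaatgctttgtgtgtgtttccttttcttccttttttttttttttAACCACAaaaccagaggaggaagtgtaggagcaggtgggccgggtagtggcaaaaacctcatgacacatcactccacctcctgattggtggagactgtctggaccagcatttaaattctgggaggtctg
AACCACA is the sequence that RUNX transcription factors, known from bone cells, recognise. These letters, searched on both strands, occur in 5.27% of 32851 RefSeq promoter windows (250 bases before to 50 after a start). The letters were chosen after the sequences were read, and a match is a description of the letters and not of binding.

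Clu encodes clusterin, a secreted chaperone that binds misfolded proteins and lipids. Its level was 560.1 FPKM in the KO library, and 719, 659 and 634 FPKM in WT replicates 1, 2 and 3. The KO library was the lowest. The difference was -0.26 (SE 0.17, 95% interval -0.70 to 0.19, adjusted p = 0.644). It was -0.51 after quantile normalization (adjusted p = 0.326) and -0.39 with 1 FPKM total. Clu (ENSMUSG00000022037) lies on chromosome 14, 65968483 to 65981547, plus strand. The ratio of Spp1 to Clu within a library was 12.9 in the KO library, and 10.4, 10.5 and 9.80 in the WT libraries, above every one of them.

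Vcam1 and Icam1, which encode immunoglobulin-family adhesion molecules for leukocyte integrins, lay above every WT library in FPKM. As a share of each library's FPKM total, both lay inside the wild type range. Vcam1 held 0.0179% in the KO library and 0.0188% in WT replicate 1, and Icam1 held 0.00926% and 0.00984%. Vcam1 was at 54.4 FPKM in the KO library against 50.3, 42.5 and 36.5 FPKM in WT replicates 1, 2 and 3. The difference was 0.34 (SE 0.20, 95% interval -0.18 to 0.87, adjusted p = 0.607), or 0.21 with 1 FPKM total, and the gap to WT replicate 1 was smaller than the gaps among WT libraries. Icam1 was at 28.2 FPKM in the KO library against 26.3, 26.4 and 25.6 FPKM. It was the steadiest of the 10 in wild type, with a coefficient of variation of 1.65%. Its difference was 0.11 (SE 0.08, 95% interval -0.11 to 0.32, adjusted p = 0.676), and -0.02 after scaling all libraries to 1 FPKM total. Vcam1 (ENSMUSG00000027962) lies on chromosome 3, 116109949 to 116129688, minus strand, and Icam1 (ENSMUSG00000037405) on chromosome 9, 21015985 to 21028817, plus strand. Their antisense models held at most 0.15 FPKM. The ratio of Vcam1 to Icam1 was 1.93 in the KO library and 1.91, 1.61 and 1.42 in the WT libraries.

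Both genes are textbook targets of NF-kB, and the Icam1 upstream stretch is shown because it holds an NF-kB and a STAT match. It is from RefSeq, build GRCm38 (mm10), chr9:21015760-21015939, plus strand, 5′ to 3′, ending at the base before the RefSeq start, with the matches in capitals (first NF-kB, then STAT).
Icam1 upstream: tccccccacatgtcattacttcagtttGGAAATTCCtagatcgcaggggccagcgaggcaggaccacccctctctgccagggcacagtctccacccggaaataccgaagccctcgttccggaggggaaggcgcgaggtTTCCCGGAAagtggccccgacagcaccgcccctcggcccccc
The NF-kB letters GGAAATTCC occur in 0.317% of the 32851 windows and the STAT letters TTCNNNGAA in 8.3%, on both strands and without overlap here. Windows were held for 6 of the 10 genes, Havcr1, Icam1, Sox4, Spp1, Prom1 and Cd44, and among these the NF-kB and STAT letters were found in Icam1 alone. Vcam1 had no window. The letters were chosen after the sequences were read, so these shares and matches are a description and not a test.

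Endothelial cells and leukocytes also carry these adhesion molecules. All 13 tested endothelial markers lay below every WT library, against 31.2% of all tested genes. Of the 13, 0 passed and 7 had an unadjusted p under 0.05, with a median difference of -0.43. The list summed to 203 FPKM in the KO library and to between 265 and 337 FPKM in the WT libraries. Cdh5, the cadherin of endothelial junctions, was at 15.0 FPKM in the KO library against 28.2 ± 4.46 FPKM (SD, n = 3), and Kdr, a VEGF receptor, at 6.46 against 7.72 ± 0.82 FPKM. None of the endothelial markers was at 0. The part of endothelial content in the Vcam1 and Icam1 values was not tested.

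Cd44 encodes the hyaluronan receptor that is switched on in injured tubules and is also carried by leukocytes. Its level was 18.2 FPKM in the KO library, and 23.7, 16.4 and 16.8 FPKM in WT replicates 1, 2 and 3. WT replicate 1 stood apart from the other two, and the knockout value lay between them. The difference was -0.04 (SE 0.24, 95% interval -0.67 to 0.60, adjusted p = 0.970), and ran from -0.16 with 1 FPKM total to 0.13 without WT replicate 1. Cd44 (ENSMUSG00000005087) lies on chromosome 2, 102811141 to 102901665, minus strand, and gene-level values do not separate its splice forms.

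Sox9 and Sox4, the transcription factors, gave unlike positions. Sox9 is activated in surviving tubular cells that divide and repair the nephron. It was at 5.28 FPKM in the KO library against 6.29, 5.27 and 4.61 FPKM in WT replicates 1, 2 and 3, inside their range. The difference was -0.02 (SE 0.17, 95% interval -0.48 to 0.45, adjusted p = 0.982), and ran from -0.13 with 1 FPKM total to 0.08 without WT replicate 1. Sox4, a factor of nephron development that is raised again after injury, was at 27.6 FPKM in the KO library against 39.2, 34.7 and 30.6 FPKM, the lowest of the 4. The difference was -0.31 (SE 0.16, 95% interval -0.74 to 0.11, adjusted p = 0.561). The ratio of Sox4 to Sox9 was 5.23 in the KO library and 6.23, 6.58 and 6.63 in the WT libraries. Sox9 (ENSMUSG00000000567) lies on chromosome 11, 112782224 to 112787760, plus strand, and Sox4 (ENSMUSG00000076431) on chromosome 13, 28948919 to 28953713, minus strand. An antisense-strand model at Sox4, Gm26735, was not analysed here, and the counting is not stated to use strand.

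**Figure D3:**
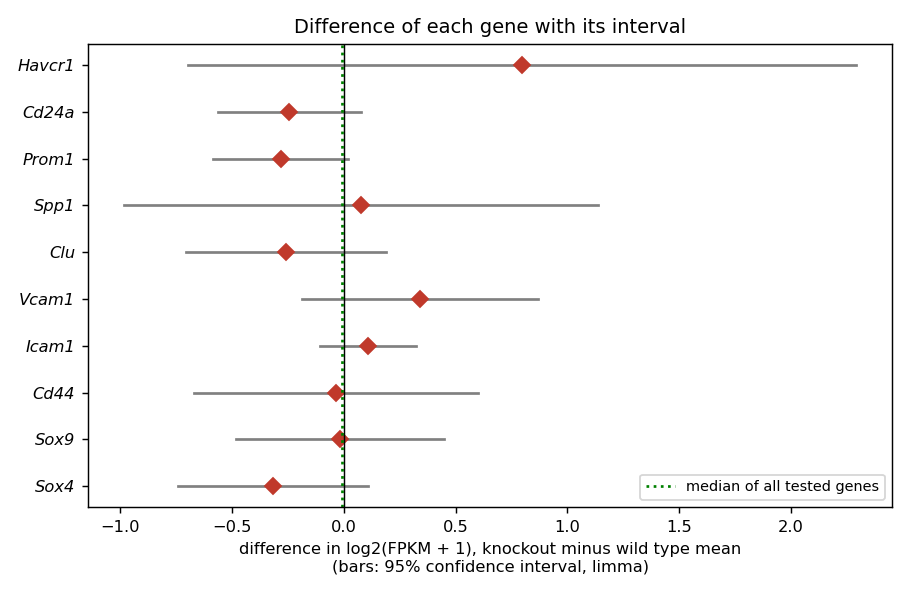
Difference in log2(FPKM + 1), KO library minus wild type mean, for each of the 10 genes, with its 95% interval from limma and the median of all tested genes as a dotted line. Every interval includes 0; that of Havcr1 is the widest (-0.70 to 2.29) and that of Icam1 the narrowest (-0.11 to 0.32).

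Ordered by wild type mean FPKM, which is scaled to transcript length, the genes ran Spp1, Clu, Cd24a, Havcr1, Vcam1, Sox4, Prom1, Icam1, Cd44 and Sox9. The wild type ranges of Cd24a and Havcr1 overlapped, as did those of Vcam1 and Sox4 and of Sox4 and Prom1, and the other neighbours did not overlap. In the KO library Havcr1 stood above Cd24a, with a ratio of 1.70 against 0.984, 1.12 and 0.498 in WT replicates 1, 2 and 3. Icam1 stood above Sox4 and Prom1 there, while it was below Prom1 in every WT library. Of all FPKM, the 10 genes together held 2.75% in the KO library and 3.28%, 2.89% and 2.54% in the WT libraries.

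Much of the variation among the 10 ran along the WT libraries. WT replicate 1 was the highest of the WT libraries for 8 of 10 genes, and for 48.0% of all tested genes. WT replicate 3 was the lowest for 9 of 10, and for 48.1% of all tested genes. The wild type coefficient of variation ran from 1.65% for Icam1 through 16.1% for Vcam1 and 21.6% for Cd44 to 40.7% for Havcr1, whose wild type SD on the log2 scale was above that of 98.1% of tested genes. Profiles centred on their mean over the 4 libraries were closest for Clu with Prom1 and for Cd24a with Clu (mean absolute distance of 0.020 on the log2 scale for each) and farthest for Havcr1 with Cd44 (0.53). By the same measure the tested genes nearest to Havcr1 were Cyp24a1, the vitamin D 24-hydroxylase (distance 0.11), the small nucleolar RNA Snora69 (0.15) and Gnpnat1 (0.17). Cyp24a1 was at 20.8 FPKM in the KO library against 13.7, 12.6 and 5.87 FPKM in WT replicates 1, 2 and 3. Snora69 was near the floor, at 1.27 FPKM in the KO library against 0.78, 0.88 and 0.04 FPKM. Gnpnat1 was at 8.27 FPKM in the KO library, below WT replicate 1 (8.76 FPKM). Nearest to Vcam1 were Prxl2b (0.0055), Gm12854 (0.016) and Sorcs1 (0.017). With 4 libraries such likeness is a description only.

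Among 24 other genes that injured tubules switch on (25 listed), 14 lay below every WT library (58.3%, against 31.2% of all tested genes) and 3 above (12.5%, against 28.0%). None passed limma's test, 7 had an unadjusted p under 0.05, and the median difference was -0.34, against -0.01 over all tested genes. It was between -0.47 and -0.26 under the alternatives run. Lcn2, the secreted siderophore-binding injury marker, was at 84.4 FPKM in the KO library against 178, 170.1 and 169 FPKM in WT replicates 1, 2 and 3 (difference -1.02, adjusted p = 0.0514). Krt19, a keratin of ducts and urothelium, was at 15.9 FPKM in the KO library against 60.5, 63.8 and 31.2 FPKM (-1.58, adjusted p = 0.382). Vim, the intermediate filament of mesenchyme and dedifferentiated tubule, was at 44.7 against 75.6 ± 9.35 FPKM (SD, n = 3; -0.74, adjusted p = 0.287), and the simple epithelial keratin Krt8 at 112 against 141 ± 27.3 FPKM (-0.31, adjusted p = 0.704). Krt20, which appears in injured tubule and in urothelium, was at 19.3 against 19.0 ± 3.75 FPKM, and Gdf15, a stress-induced cytokine, at 7.42 against 5.35 ± 0.48 FPKM (0.41, adjusted p = 0.391).

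**Figure D4:**
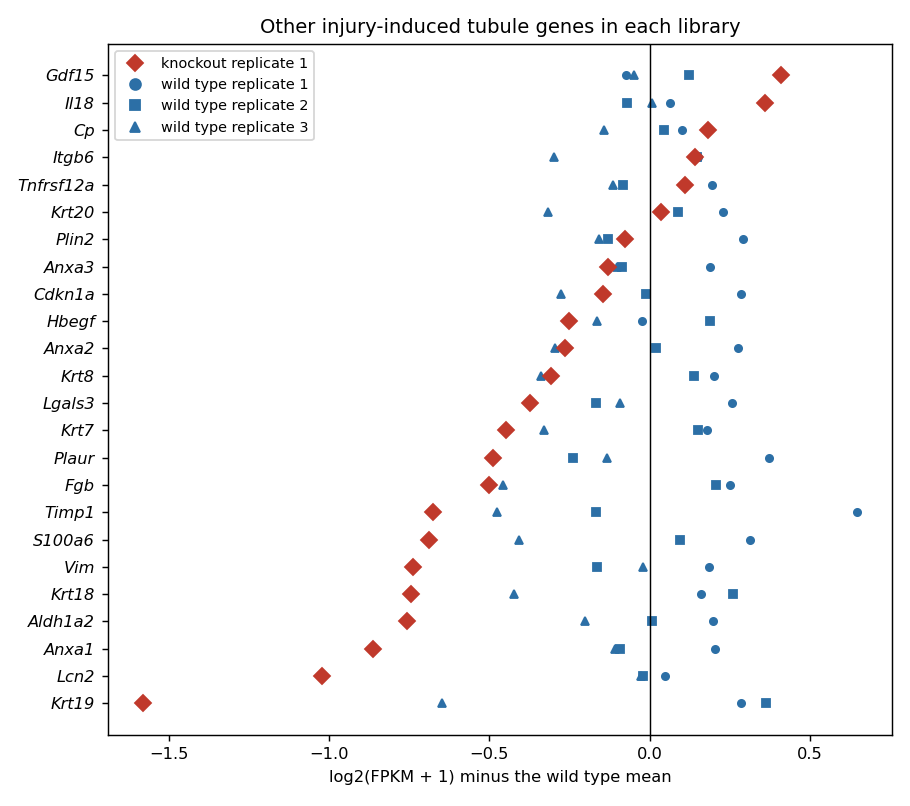
Each library's log2(FPKM + 1) minus the wild type mean for 24 other injury-induced tubule genes, ordered by the knockout difference (knockout diamond; WT replicates circle, square and triangle). Krt19 (-1.58) and Lcn2 (-1.02) have the lowest knockout values, and WT replicate 3 is the nearest to the KO library for Krt7, Krt8, Krt18 and Krt19.

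Several of these genes are also made by urothelium and stroma, whose markers were low in the same library. All 10 tested urothelium markers lay below every WT library, against 31.2% of all tested genes. Of the 10, 0 passed and 1 had an unadjusted p under 0.05. The median was -1.82, or -2.91 with a pseudocount of 0.1 FPKM and -3.30 with 0.01. The list summed to 8.16 FPKM in the KO library and to 98.9, 116 and 21.1 FPKM in the WT libraries. Upk2 and Krt13 were listed at 0 in the KO library, Krt15 was at 0.74 against 16.5 ± 11.2 FPKM (SD, n = 3), and Grhl3 at 0.37 against 0.94 ± 0.34 FPKM. Of 15 fibroblast and myofibroblast markers, 13 lay below every WT library (86.7%, against 31.2% of all tested genes). Of the 15, 3 fell (Acta2, Fn1 and Col1a1) and 0 rose, with a median of -0.95 (10 at an unadjusted p under 0.05). Their sum was 439 FPKM in the KO library and 961, 1118 and 913 FPKM in the WT libraries. Acta2, smooth muscle actin, was at 38.9 FPKM against 136 ± 7.81 FPKM (adjusted p = 0.0153), Fn1, fibronectin, at 41.0 against 107 ± 9.05 FPKM (0.0456) and Col1a1, type I collagen, at 68.8 against 163 ± 6.21 FPKM (0.0313), while Lum was at 9.15 against 11.1 ± 5.65 FPKM. None of these 3 calls held when any 1 WT library was left out (adjusted p between 0.108 and 0.309). The part of urothelial and stromal content in the injury genes was not tested.

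Of 14 genes linked to failed repair of the proximal tubule, 0 passed (2 at an unadjusted p under 0.05). Above every WT library lay 4 (28.6%, against 28.0% of all tested genes), and 4 lay below (28.6%, against 31.2%). The median was -0.01, of either sign under the alternatives. Ccl2, a monocyte chemokine of failed-repair cells, was at 22.3 FPKM in the KO library against 21.8, 10.4 and 11.4 FPKM in WT replicates 1, 2 and 3. Ccn1, a matricellular protein induced by tension, was at 27.3 against 66.6 ± 18.8 FPKM (SD, n = 3; -1.22, adjusted p = 0.371), and Itgav, an osteopontin-binding integrin chain, at 32.9 against 33.9 ± 4.49 FPKM. Of 16 tested genes of nephron development, 0 passed (1 at an unadjusted p under 0.05), with a median of 0.0035 whose sign also turned, and with the Notch ligand Jag1 at 10.2 against 13.9 ± 3.02 FPKM. Cell cycle genes, which rise when tubules regenerate, had a median of -0.17 (0 of 20 passed, 2 at an unadjusted p under 0.05). Of the 20, 11 lay below every WT library (55%, against 31.2% of all tested genes) and 0 above (against 28.0%). Foxm1, a mitotic transcription factor, was at 1.63 against 2.70 ± 0.64 FPKM and the replication factor Mcm2 at 4.10 against 3.90 ± 0.37 FPKM. The cell cycle median was -0.06 without WT replicate 1 and -0.27 with 1 FPKM total.

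No family relative of the members passed the test. Of 17 other SOX genes, 9 were tested and 0 passed (1 at an unadjusted p under 0.05). Of these 9, 5 lay below every WT library (55.6%, against 31.2% of all tested genes) and 0 above (against 28.0%). Their median was -0.08 (-0.15 with 1 FPKM total, -0.04 with no filter). Sox7, an endothelial factor, was at 1.57 FPKM in the KO library against 2.75 ± 0.09 FPKM (SD, n = 3), and Sox11 at 1.11 against 1.10 ± 0.14 FPKM. Among 12 relatives of KIM-1, ICAM-1, osteopontin, prominin and CD44, 5 were tested and 0 passed (1 at an unadjusted p under 0.05; median -0.01, of either sign). Timd2, a TIM-family receptor for ferritin, was at 18.4 FPKM in the KO library against 7.61, 12.6 and 8.98 FPKM in WT replicates 1, 2 and 3 (0.88, adjusted p = 0.417). Havcr2 (TIM-3, a leukocyte receptor) was at 2.54 against 2.36 ± 0.49 FPKM, and Lyve1, the hyaluronan receptor of lymphatic vessels, at 0.39 against 1.07 ± 0.59 FPKM.

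Receptors, ligands and processing enzymes of the members had a median difference of -0.21, with 0 of 22 past the test (4 at an unadjusted p under 0.05), 11 below and 3 above every WT library. Of all tested genes, 31.2% lay below and 28.0% above every WT library, so this list had more genes below and fewer above than the background. The 3 above were chains of the leukocyte integrins that bind VCAM-1 and ICAM-1. Other chains of these integrins did not share this position. Itgb2 and Itgam lay inside the wild type range, and Itgb1, the partner of Itga4 in VLA-4, lay below every WT library. Itgal, the alpha chain of LFA-1, was at 7.22 FPKM in the KO library against 5.39, 4.24 and 3.91 FPKM in WT replicates 1, 2 and 3 (0.59, adjusted p = 0.408), Itga4, of VLA-4, was at 5.73 against 4.29 ± 0.63 FPKM (SD, n = 3; 0.35, adjusted p = 0.524) and Itgb7 at 8.58 against 5.05 ± 1.14 FPKM (0.68, adjusted p = 0.435). The shared beta chain Itgb2 was at 21.1 against 20.8 ± 5.13 FPKM, and Itgam, of the myeloid integrin Mac-1, at 13.5 against 17.4 ± 6.04 FPKM. Itgb1, the common integrin beta chain, was at 143 against 191 ± 19.4 FPKM (-0.41, adjusted p = 0.477). The clusterin receptor megalin (Lrp2) was at 24.2 against 9.91, 16.4 and 24.6 FPKM, the hyaluronan synthase Has2 at 0.31 against 2.08, 0.60 and 0.64 FPKM, and the gelatinase Mmp9 at 2.60 against 17.4, 1.28 and 8.82 FPKM.

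Leukocyte markers, read beside these integrins, included 7 that rose. Of 15 tested T and NK cell markers, 14 lay above every WT library (93.3%, against 28.0% of all tested genes). Of the 15, 0 passed and 5 had an unadjusted p under 0.05, with a median of 0.38. The list summed to 72.4 FPKM in the KO library and to 43.8 to 61.2 FPKM in the WT libraries. Cd3g was at 4.66 against 2.20 ± 0.77 FPKM (SD, n = 3) and Cd4 at 4.22 against 3.81 ± 0.53 FPKM. Of 12 tested B and plasma cell markers, 6 rose (Jchain, Mzb1, Pou2af1, Derl3, Cd79a and Tent5c) and 0 fell (median 1.21, 11 at an unadjusted p under 0.05). The list summed to 448 FPKM in the KO library and to between 80.2 and 106 FPKM in the WT libraries, with Jchain, the joining chain of secreted antibodies, at 310 against 7.54 ± 2.83 FPKM (adjusted p = 0.0195) and Sdc1, which is also made by epithelium, at 18.5 against 25.1 ± 6.48 FPKM. Mzb1 passed whichever WT library was left out (adjusted p from 0.0254 to 0.0423); Jchain passed without replicate 1 but not without replicate 2 (0.0987) or 3 (0.119), Pou2af1 without replicate 2 but not without 1 (0.0866) or 3 (0.0738), and Derl3, Cd79a and Tent5c in none of these fits. Of 15 macrophage and monocyte markers, 1 rose, Ly6c2 (7.44 against 2.48 ± 0.11 FPKM, adjusted p = 0.0275, and between 0.144 and 0.155 without 1 WT library), and the median was 0.03, of either sign. The list summed to 1308 FPKM in the KO library and to 1354, 919.9 and 1407 FPKM in the WT libraries, with Gpnmb at 1.10 against 3.79 ± 3.56 FPKM. No marker on the 3 leukocyte lists was at 0 in the KO library. The part of leukocyte content in the levels of Cd44, Spp1 and the integrin chains was not tested.

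NF-kB subunits, inhibitors and inducers showed no called gene either. Of 20, 0 passed (2 at an unadjusted p under 0.05). Below every WT library lay 6 (30%, against 31.2% of all tested genes), and 4 lay above (20%, against 28.0%). The median was -0.08. It was -0.0076 without WT replicate 1 and -0.21 with 1 FPKM total. Nfkbia, the inhibitor that NF-kB itself induces, was at 37.3 FPKM in the KO library against 45.7, 45.8 and 39.6 FPKM in WT replicates 1, 2 and 3 (-0.22, adjusted p = 0.599). Il1b, the inflammatory cytokine, was at 6.51 against 20.7, 13.1 and 9.64 FPKM (-0.98, adjusted p = 0.506), and Birc3, an NF-kB target that blocks cell death, at 20.1 against 17.1 ± 1.57 FPKM (SD, n = 3). Immediate early and heat shock genes respond to handling as well as to stress, and 13 of 15 lay below every WT library (86.7%, against 31.2% of all tested genes). The 15 genes had a median of -0.53 (0 passed, 4 at an unadjusted p under 0.05), with Nr4a1 at 2.74 against 11.9 ± 4.61 FPKM and Jun at 41.0 against 43.9 ± 5.61 FPKM. Their sum was 222 FPKM in the KO library and 353, 339 and 253 FPKM in the WT libraries, and its part in the injury genes was not tested. Loop, distal tubule and collecting duct markers had a median of -0.04 (0 of 19 passed, 1 at an unadjusted p under 0.05), of either sign, with Umod, the uromodulin of the thick ascending limb, at 473 against 514 ± 155 FPKM, Cldn10 at 17.4 against 11.2 ± 1.76 FPKM and Slc26a4 at 4.78 against 5.91 ± 0.50 FPKM.

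**Figure D5:**
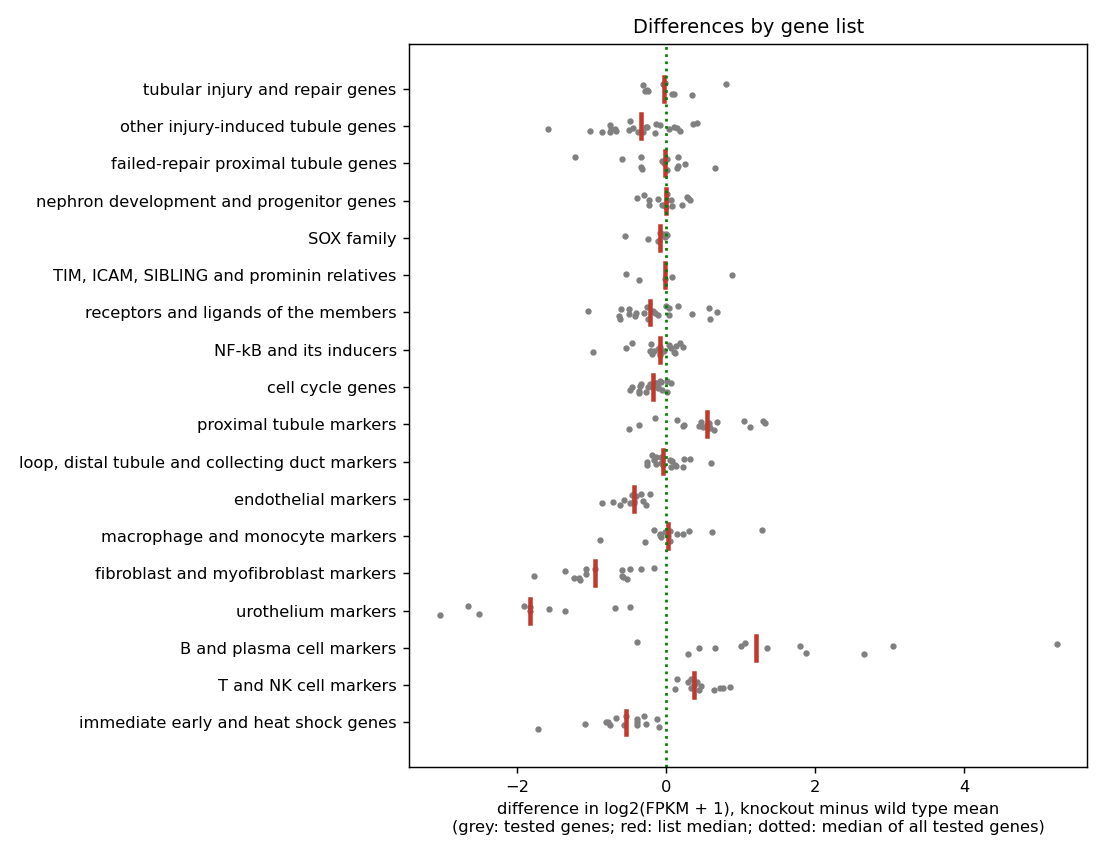
Difference in log2(FPKM + 1), KO library minus wild type mean, for each tested gene (grey) of the 10 tubular injury and repair genes and of 17 further lists, with list medians in red and the median of all tested genes dotted. The 10 genes centre on -0.03, the other injury-induced genes on -0.34, urothelium markers on -1.82 and B and plasma cell markers on 1.21.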

How the data were processed

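Messenger RNA of obstructed mouse kidneys was purified on oligo(dT) beads and sequenced, per the labels' protocols. The submitters' processing notes list cutadapt 1.9, FastQC, HISAT2 2.0.4 and mm10 and do not say what each was used for. The quantification program and gene annotation were not given in the sources used for these values. The table deposited by the authors gives FPKM per gene and library, with 2 decimals, per the file headers. Its fold change is a ratio of knockout FPKM to mean wild type FPKM, its log2 column is the log2 of that ratio, and its p-value and q-value columns come from a test that the authors' deposited table does not name. No depth or counts are given, so no counting intervals were computed.

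The groups came from the sample titles, which name 6 samples; 4 had a value column. Genes averaging 0.5 FPKM or more over the 4 libraries (16871) were fitted on log2(FPKM + 1), a scale that understates changes of low genes, with limma 3.58.1 in R 4.3.3, with a mean-variance trend, two-sided, Benjamini-Hochberg adjusted over all tested genes at 0.05. The fit had 2 residual and 2.32 prior degrees of freedom; the spread was estimated among wild type replicates only and taken to hold for the knockout. Data were simulated for this comparison with 16871 genes. Known log2 changes of 1 were called in 28 of 80 genes, of 2 in 70 of 80 and of 4 in 38 of 40. Of 16671 unchanged genes, 2 were called. The changed genes were drawn only from those above a wild type level that Sox9 did not reach. The simulated knockout had the wild type spread, so the rate of false calls rests on that assumption. Alternatives varied the pseudocount, filter, scaling, trend, immunoglobulin genes and wild type libraries.

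The members and lists were chosen with earlier results of these data known, and the promoter motifs after the sequences were read. Text genes are the members, Cd248, every list's largest and smallest difference and passing genes, 18 fixed genes, and the 3 nearest profiles of the 2 members with the widest difference. A gene that this rule names is not reported here. Coordinates are from GENCODE M21, whose IDs matched 33572 of 33679 genes, and promoters from RefSeq (GRCm38).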

Additional observations from a re-analysis of the deposited data

How the results depend on the processing

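None of the 10 genes passed under any of 12 alternatives (lowest adjusted p 0.232, Cd24a with quantile normalization), and 115 of 120 differences kept their sign. The 5 that turned were Icam1 (-0.022) and Spp1 (-0.057) with the same FPKM total, Spp1 with quantile normalization (-0.12), and Sox9 and Cd44 without wild type replicate 1. Leaving out each wild type library in turn gave -0.106 to 0.0825 for Sox9 and -0.126 to 0.128 for Cd44. The same FPKM total moved the median of all tested genes to -0.11, and relative to that shift Icam1 and Spp1 still lay higher. Genes above every wild type library numbered 3, but 1 with the same FPKM total and 3 to 6 without 1 wild type library; 4 lay below under every alternative. Calls over all genes numbered 122, against 39 and 27 with a pseudocount of 0.1 and 0.01 FPKM, 205 without a filter, 18 with immunoglobulin genes left out and the rest rescaled (11 higher and 7 lower, against 108 and 14), and 45 to 73 without 1 wild type library (45 without replicate 3, 53 without replicate 1). The cause was not tested. No paired analysis was possible because only 1 knockout library had values. Unknown depth, 1 knockout library and, without 1 wild type library, 1 residual degree of freedom limit every comparison: the widest interval, for Havcr1, ran from -0.70 to 2.29.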
